A study of Mus musculus with 5 samples.

Results

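Cathepsins are proteases of lysosomes and endosomes, and 8 of their genes were examined in regulatory T (Treg) cells, a class of CD4 T cells that depends on Foxp3 and dampens immunity. The genes were Ctse, Ctsd, Ctsb, Ctsl, Ctss, Ctsz, Ctsc and Ctsw, taken by symbol from the 38130 entries that each library holds. Each symbol matched 1 entry. Ctse was selected on its measured levels, which differ strongly between these libraries, so they are a description here and carry no test. The other 7 are further cathepsin genes. The libraries were 2 from Foxp3Cre-YFP /malt1fl/C472A mice aged 6 weeks (KI), 1 from Foxp3Cre-YFP /malt1fl/fl mice aged 21 days (KO), 1 from wild type (WT) reporter mice aged 6 weeks and 1 from WT reporter mice aged 21 days. All mice were C57BL/6 and carried a Cre and yellow fluorescent protein reporter driven by Foxp3, and total RNA came from sorted CD4+YFP+ cells. KI cells hold 1 floxed Malt1 allele and 1 with the C472A change, which the labels describe as inhibiting its protease, so with Cre acting on the floxed allele protease activity need not be the only difference of KI from WT. In KO the deletion is limited to cells in which Foxp3 drives Cre. Whether each library came from its own animals is not stated, so p-values measure only the spread between the KI samples, which may be technical.

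Cathepsins are made as inactive precursors that are sorted to endosomes and lysosomes, where acid pH and other proteases remove a propeptide. Most belong to the papain family and cut with a cysteine, while cathepsins D and E are aspartic proteases that cut with a pair of aspartates. They degrade proteins taken up or turned over by the cell, mature other proteases such as granzymes, and in antigen-presenting cells trim the invariant chain and the antigens loaded on class II molecules. Cystatins, some serpins and propeptide-like proteins hold them in check.

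Coding stretches around the catalytic residue are printed for 7 of the 8 genes, to show this difference in class. Each line gives 33 bases of a GENCODE M21 transcript (GRCm38), 5′ to 3′, with the codon of the catalytic residue in capitals, an aspartate codon in Ctse and a cysteine codon in the other 6.
Ctse: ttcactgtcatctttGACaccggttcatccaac
Ctsb: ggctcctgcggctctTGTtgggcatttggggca
Ctsl: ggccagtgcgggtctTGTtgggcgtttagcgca
Ctss: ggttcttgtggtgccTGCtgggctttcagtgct
Ctsz: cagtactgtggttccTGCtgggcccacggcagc
Ctsc: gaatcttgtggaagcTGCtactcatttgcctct
Ctsw: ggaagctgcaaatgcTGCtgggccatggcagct

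Levels are given as scaled FPKM, fragments per kilobase of transcript at a common sequencing depth as deposited, divided by a median-of-ratios factor for each library, and are therefore per length and comparable between genes. The bounds beside a value lie 2 standard errors from it and describe counting and read assignment in 1 library, not variation between samples. Differences are on the log2(scaled FPKM + 1) scale, on which changes of low genes are understated, and a gene is called past 2-fold where this difference is at least 1 in size, in both libraries for KI. Depth, estimated from the bounds, was 24.5 and 24.5 M fragments in KI replicates 1 and 2, 7.79 M in KO, 6.88 M in WT at 6 weeks and 28.1 M in WT at 21 days. The shallow KO and WT 6-week libraries and the deep KI and WT 21-day libraries thus cross age and genotype, so each mutant was also set against the WT library of the other age. Malt1 itself had 56.05 and 37.95 scaled FPKM in KI, 17.6 in KO, 15.3 in 6-week WT and 27.0 in 21-day WT, so the library labelled KO lay between the WT libraries. Foxp3 was present in every library, with 70.3 and 73.8 in KI, 30.6 in KO, 39.6 in 6-week WT and 70.9 in 21-day WT. In bulk RNA, fewer cells of a type and less RNA per cell cannot be told apart.

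Ctse encodes cathepsin E, an endosomal aspartic protease known from gastric epithelium, erythrocyte precursors and lymphoid and antigen-presenting cells. It lies on chromosome 1 from 131638306 to 131675503 (GRCm38, ENSMUSG00000004552), with no annotated gene overlapping it. Ctse had 7.85 (bounds 7.03 and 8.67) and 6.13 (5.46 and 6.80) scaled FPKM in KI, 83.7 (78.6 and 88.8) in KO, 63.8 (59.4 and 68.2) in 6-week WT and 5.65 (5.01 and 6.28) in 21-day WT. KO and WT at 6 weeks were high, and both KI libraries and WT at 21 days were low, with no overlap of bounds between these sets. The lowest neighbours, KI replicate 2 and WT at 21 days, overlapped in their bounds, and KO and WT at 6 weeks did not. KI averaged 6.99 ± 1.21 (SD, n = 2) against 63.8 in WT at 6 weeks, a log2 difference of -2.87 and -3.18 in the replicates. KO lay 3.67 above WT at 21 days, a level 14.8 times as high. Against the WT library of the other age the differences were 0.41 and 0.10 for the KI replicates and 0.39 for KO. WT at 6 weeks in turn lay 3.28 above WT at 21 days, a difference between 2 WT libraries that exceeds the KI mean difference of -3.03 in size and is smaller than that of KO.

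**Figure D1:**
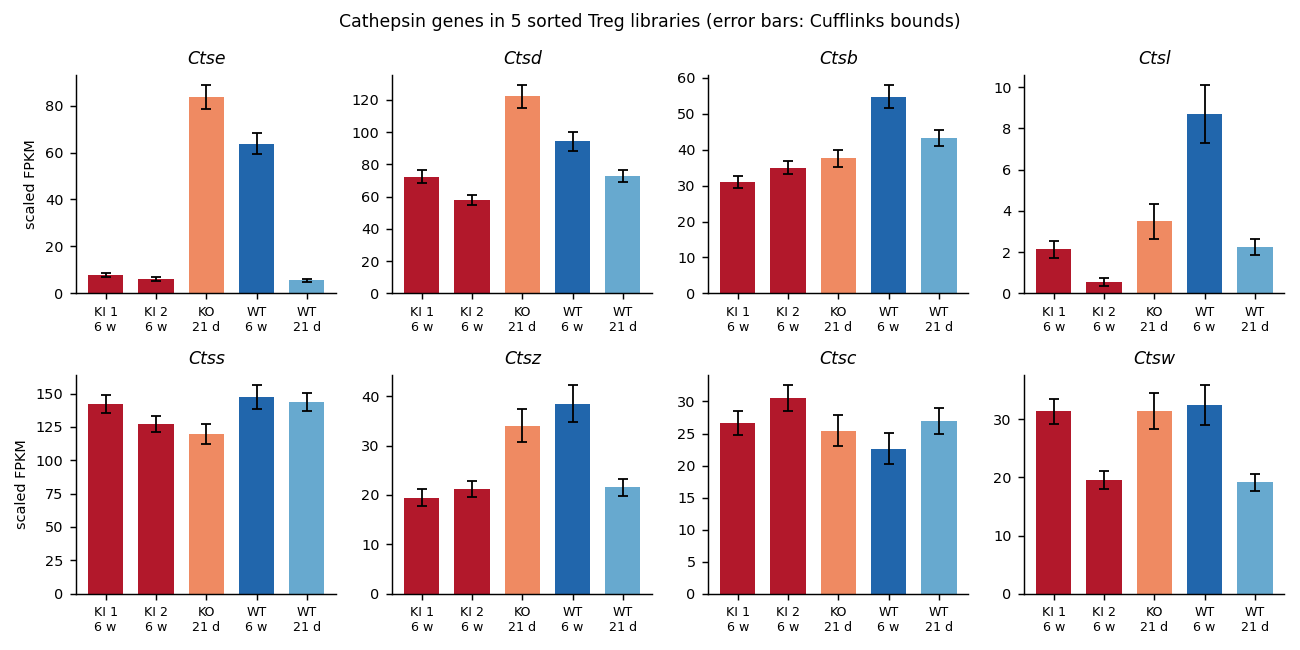
Scaled FPKM (y axis, from 0) of each of the 8 cathepsin genes in the 5 libraries (x axis, KI replicates 1 and 2, KO, WT at 6 weeks, WT at 21 days), as bars with the Cufflinks lower and upper bounds as error bars. Ctse is at 83.7 in KO and 63.8 in WT at 6 weeks and between 5.65 and 7.85 in the other libraries, while Ctss and Ctsc stay within 119.7 to 147 and 22.6 to 30.5.

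Ctsd encodes cathepsin D, the main aspartic protease of lysosomes, and lies on chromosome 7 from 142371148 to 142388038. It had 72.3 and 57.9 scaled FPKM in KI, 122 in KO, 94.2 in 6-week WT and 72.9 in 21-day WT. The same 2 libraries as for Ctse were highest and in the same order, but the highest value was only 2.11 times the lowest. Ctsd lay 0.74 above WT at 21 days in KO and 0.38 and 0.69 below WT at 6 weeks in the KI replicates, so no difference was past 2-fold. With FPKM as deposited the KO difference was 1.12, past 2-fold. The entry also spans a second annotated gene on the same strand, Gm49369, and reads of the overlap cannot be separated here.

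Ctsz and Ctsw, of the papain family, were also high in both KO and WT at 6 weeks. Ctsz (chromosome 2, 174427493 to 174439039) encodes cathepsin Z, also called X, a carboxypeptidase, and had 19.4 and 21.2 scaled FPKM in KI, 34.01 in KO, 38.5 in 6-week WT and 21.5 in 21-day WT. The KO and WT 6-week values overlapped in their bounds, as did the 3 lower ones, and the sets stood apart. Ctsz lay 0.95 and 0.83 below WT at 6 weeks in the KI replicates and 0.64 above WT at 21 days in KO. Ctsw (chromosome 19, 5465240 to 5468498) encodes cathepsin W, known from cytotoxic lymphocytes and held in the endoplasmic reticulum. It had 31.4 and 19.5 in KI, 31.4 in KO, 32.5 in 6-week WT and 19.2 in 21-day WT. The KI replicates disagreed for Ctsw, replicate 1 lying with KO and WT at 6 weeks and replicate 2 with WT at 21 days, and the KI mean was 25.4 ± 8.38 (SD, n = 2).

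Ctsb (chromosome 14, 63122462 to 63145919) encodes cathepsin B, an abundant lysosomal protease with both endopeptidase and carboxypeptidase activity. It had 31.0 and 35.0 scaled FPKM in KI, 37.7 in KO, 54.8 in 6-week WT and 43.3 in 21-day WT. All 3 mutant libraries lay below both WT libraries, and their bounds did not overlap those of WT. The KI replicates lay 0.80 and 0.63 below WT at 6 weeks and 0.47 and 0.30 below WT at 21 days, and KO lay 0.19 below WT at 21 days and 0.53 below WT at 6 weeks. The order of KO and WT at 21 days turns with FPKM as deposited, where KO lay 0.18 above, so it depends on the scaling of these libraries.

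Ctsl encodes cathepsin L, which in thymic epithelium and macrophages acts on the invariant chain and on antigens, and was the lowest of the 8 genes. It had 2.14 (bounds 1.73 and 2.55) and 0.558 (0.363 and 0.754) scaled FPKM in KI, 3.49 (2.63 and 4.34) in KO, 8.70 (7.29 and 10.1) in 6-week WT and 2.25 (1.86 and 2.64) in 21-day WT. WT at 6 weeks alone was high, and KO overlapped WT at 21 days in its bounds. About 33 fragments stood behind the KI replicate 2 value and 152 behind that of WT at 6 weeks, as estimated from the bounds. The KI replicates lay 1.63 and 2.64 below WT at 6 weeks and 0.05 and 1.06 below WT at 21 days, and WT at 6 weeks lay 1.58 above WT at 21 days. The entry ends at 64370306 on chromosome 13, while the GENCODE M21 gene runs from 64359337 to 64370890, so the entry is shorter than the annotated gene.

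Ctss and Ctsc varied least. Each of the 7 genes other than Ctse has an annotated gene overlapping it, on the opposite strand for Ctsb, Ctsz, Ctsc and Ctsw. Over its GENCODE M21 span Ctsl has 2, Gm47123 on the opposite strand and Gm49230 on its own. Ctss (chromosome 3, 95526786 to 95556403) encodes cathepsin S, which trims the invariant chain in antigen-presenting cells, and was the most abundant of the 8 genes, with 142 and 127 scaled FPKM in KI, 119.7 in KO, 147 in 6-week WT and 144 in 21-day WT. Its highest value was 1.23 times its lowest, and KI replicate 1 overlapped both WT libraries in its bounds, while KI replicate 2 overlapped neither. Ctsc (chromosome 7, 88278085 to 88310888) encodes cathepsin C, the dipeptidyl peptidase that activates granzymes, and had 26.6 and 30.5 in KI, 25.5 in KO, 22.6 in 6-week WT and 26.9 in 21-day WT. Every neighbour in the order of its levels overlapped in its bounds. It was the only one of the 8 with its KI mean above WT at 6 weeks, by 0.32 (SE 0.236, adjusted p = 0.632 in limma), and the difference was 0.04 with FPKM as deposited.

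In KI against WT at 6 weeks, 2 of the 8 genes, Ctse and Ctsl, were past 2-fold lower in both KI libraries, beside 2.80% of the 11298 genes tested, and 0 were past 2-fold higher, beside 3.02%. Ctse was among the 8 because of such differences, so nothing is read from its count. Of the 8, 7 lay lower in the KI mean, with a median difference of -0.63. Of all genes tested, 50.4% lay lower, with a median of 0.00. Ctse is counted in both figures of the 8. Of the other 7 genes all but Ctsc lay lower, and their middle difference was that of Ctsd, -0.54. limma was fitted across all genes with 1 residual degree of freedom, that between the KI libraries, whose spread also stands in for that of WT, with its single library. It called 0 of the 7 genes other than Ctse, where it called 0.00885% of all genes. At an unadjusted p under 0.05 it had 3 of the 7, beside 10.7% of all genes. These were Ctsb (difference -0.72, SE 0.225, adjusted p = 0.459), Ctsl (-2.13, SE 0.553, adjusted p = 0.451) and Ctsz (-0.89, SE 0.227, adjusted p = 0.449). Against WT at 21 days, 0 of the 8 were past 2-fold in both KI libraries, beside 0.398% of genes higher and 0.788% lower, and the median of the 8 was -0.09.

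In KO against WT at 21 days, 1 of the 8 genes, Ctse, was past 2-fold higher, beside 6.14% of all genes. Past 2-fold lower were 0, beside 8.16%. Ctse was among the 8 because of such differences, so nothing is read from its part in the counts and medians here. Of the 8, 5 were higher and 3 lower, with a median of 0.55 against 0.02 over all genes. Without Ctse the middle difference was that of Ctsl, 0.46. All 8 were higher with FPKM as deposited, but on that scale the median of all genes was itself 0.35. Against WT at 6 weeks, 0 were past 2-fold higher, beside 3.32%, and 1, Ctsl, was past 2-fold lower, beside 2.30% (difference -1.11). The median of the 8 there was -0.11. In WT at 6 weeks against WT at 21 days, 2 of the 8, Ctse and Ctsl, were past 2-fold higher, beside 3.38%, and 0 were past 2-fold lower, beside 5.19%. Of the 8, 7 were higher, all but Ctsc, with a median of 0.55 against 0.01 over all genes. Without Ctse the middle difference was that of Ctsd, 0.365. Ctsc was higher too with FPKM as deposited. These comparisons share WT libraries and are not independent of each other, and KO and each WT group have 1 library, so none but that of KI has a replicate check.

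**Figure D2:**
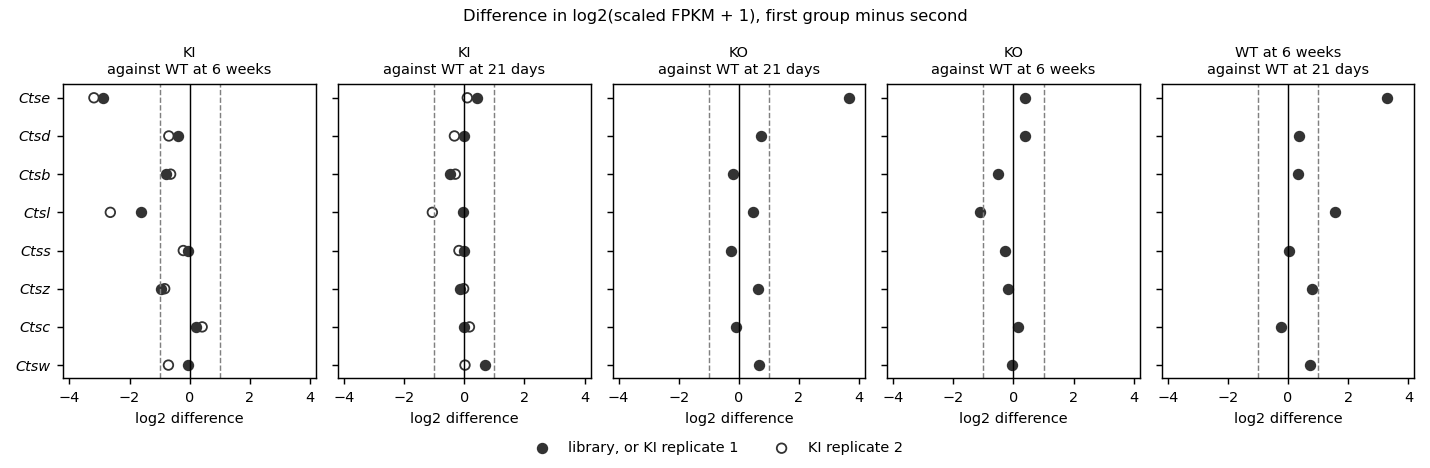
Difference in log2(scaled FPKM + 1) (x axis, first group minus second) of the 8 genes (y axis) in 5 comparisons, with dashed lines at 2-fold. Filled points are the single library or KI replicate 1, and open points KI replicate 2. Ctse lies at -2.87 and -3.18 for KI against WT at 6 weeks, at 3.67 for KO against WT at 21 days and at 3.28 between the WT libraries, and within 2-fold in the other panels.

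The 8 genes were also compared by the pattern of their levels over the libraries. The measure of likeness was the root-mean-square difference between 2 genes of log2(scaled FPKM + 1), each centred on its mean over the 5 libraries. Among the 7 genes other than Ctse, the closest pairs were Ctss with Ctsc (0.21) and Ctsd with Ctsz (0.23), and the furthest was Ctsl with Ctsc (0.99). Pairs with Ctse lay between 1.11 with Ctsl and 1.73 with Ctsc, and since Ctse was selected on its differences between these libraries, nothing is read from that distance. Among the 9872 protein-coding genes tested, those nearest to Ctse were PPP4R2 (ENSMUSG00000097854, 0.17), Gm11273 (0.29), ENTPD4 (ENSMUSG00000095463, 0.56), Pdlim4 (0.64) and Gzma (0.67), with symbols as the files spell them. PPP4R2 had 9.51 scaled FPKM in KO and 8.88 in WT at 6 weeks, and Gm11273 had 17.0 in KO and 9.10 in WT at 6 weeks. Both were at most 0.000226 in KI and WT at 21 days, so they passed the filter through KO and WT at 6 weeks alone. Pdlim4, a PDZ and LIM domain protein of the actin cytoskeleton, had 4.33 and 1.09 in KI, 13.7 in KO, 11.1 in 6-week WT and 0.676 in 21-day WT. Of the other cathepsin genes, Ctsl came 93rd by this measure, Ctsz 331st, Ctsd 480th, Ctsw 1232nd, Ctsb 2844th, Ctss 5537th and Ctsc 6606th. Nothing is read from these ranks either. All these genes were measured in the same 5 libraries, which fall into 2 sets of unlike depth.

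Markers of Treg and of other cell types also differed between the libraries. The summed level of the 5 Treg markers (Foxp3, Il2ra, Ctla4, Ikzf2 and Tnfrsf18) was low where Ctse was high. It was 762 and 712 scaled FPKM in KI, 344 in KO, 389 in 6-week WT and 729 in 21-day WT. Tnfrsf18 alone varied little, from 90.3 in 6-week WT to 112 in KI replicate 2. The 7 markers found for plasmacytoid dendritic cells summed to 20.2 and 27.3 in KI, 39.7 in KO, 124 in 6-week WT and 35.9 in 21-day WT. Bst2 gave 18.5 and 26.1 of this in KI, 32.8 in KO, 65.9 in 6-week WT and 32.0 in 21-day WT. Siglech had 16.8 in 6-week WT, at most 1.24 in any other library and 0 in KI replicate 1, and Cox6a2 was at 0 in both KI libraries. The 10 myeloid markers summed to 28.5 and 8.97 in KI, 18.7 in KO, 101 in 6-week WT and 15.8 in 21-day WT, and none was at 0. Both of these sums were highest in WT at 6 weeks. The 6 B cell markers found summed to 4.18 and 3.09 in KI, 6.62 in KO, 22.6 in 6-week WT and 16.7 in 21-day WT. The 7 erythroid markers summed to 28.4 and 3.63 in KI, 2.72 in KO, 55.9 in 6-week WT and 6.85 in 21-day WT, with Hba-a1 at 0 in KO. These 4 sums and Ctsl were highest in WT at 6 weeks, and all 4 sums were lower in KO. The 6 NK cell markers summed to 35.03 and 37.7 in KI, 79.9 in KO, 35.3 in 6-week WT and 22.1 in 21-day WT, so this sum alone was highest in KO, with Nkg7 giving 74.0 of it and Klre1 at 0 in KI and KO. The 5 markers of all T cells summed to 1165 and 1461 in KI, 1768 in KO, 2193 in 6-week WT and 1658 in 21-day WT. Sums of CD8 T cell markers ran from 5.80 in KI to 13.2 in WT at 6 weeks. Those of plasma cell markers ran from 41.2 in WT at 6 weeks to 72.7 in KI replicate 1, with Xbp1 giving 30.9 and 62.5 of these. Jchain and Mzb1 were instead highest in KO, and Prdm1 in KI replicate 2. The part of other cells in the levels of the cathepsin genes was not tested.

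**Figure D3:**
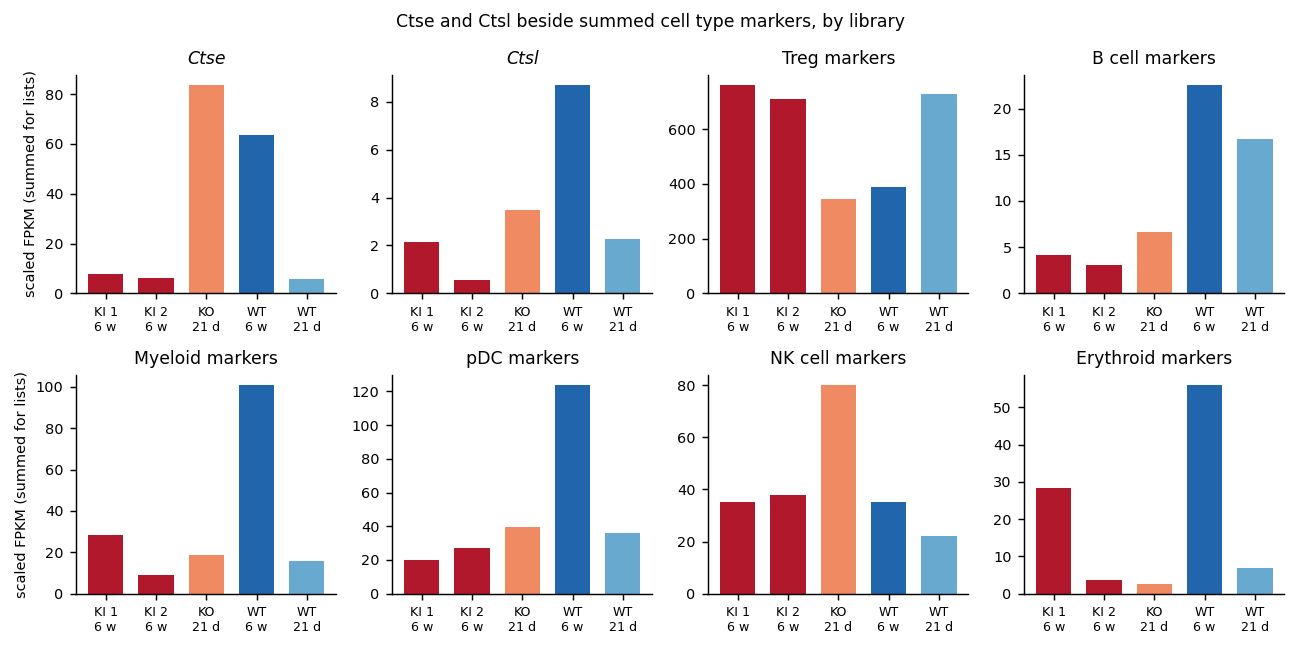
Scaled FPKM (y axis, from 0) of Ctse and Ctsl, and summed over marker lists of Treg, B, myeloid, plasmacytoid dendritic (pDC), NK and erythroid cells, in the 5 libraries (x axis). Ctse is high in KO and WT at 6 weeks, the Treg sum is low in the same libraries, and the B, myeloid, pDC and erythroid sums, like Ctsl, are highest in WT at 6 weeks.

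The files hold 15 further cathepsin genes, of which 3 passed the filter of a mean scaled FPKM of 1. Ctsh, an aminopeptidase, was high in WT at 6 weeks alone, as was Ctsl, with 1.20 and 0.109 in KI, 1.98 in KO, 12.5 in 6-week WT and 1.07 in 21-day WT. Ctsa, a serine carboxypeptidase that protects lysosomal sialidase and galactosidase, had 46.9 and 49.1 in KI, 63.7 in KO, 53.0 in 6-week WT and 38.1 in 21-day WT. Ctso had 14.4 and 13.1 in KI, 10.3 in KO, 10.1 in 6-week WT and 9.02 in 21-day WT, higher in both KI libraries than in the others. Ctsf and Ctsk were below 1 in every library. Ctsg, a granule protease of neutrophils, and the 9 genes Ctsj, Ctsm, Ctsq, Ctsr, Cts3, Cts6, Cts7, Cts8 and Ctsll3 of the chromosome 13 cluster were listed at 0 in all 5.

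Of the listed cathepsin inhibitors, 7 of 18 passed the filter. The 2 most abundant were higher in all 3 mutant libraries than in either WT library, and Ctla2a was not. How many of all genes have this order was not counted, so nothing is read from it. Serpina3g, a mouse serpin known to inhibit cathepsin B in the cytosol of T cells, had 87.9 and 93.5 in KI, 88.5 in KO, 26.3 in 6-week WT and 41.4 in 21-day WT. Cst7, or cystatin F, which inhibits cathepsin C in cytotoxic cells, had 58.7 and 65.3 in KI, 110.5 in KO, 41.8 in 6-week WT and 45.8 in 21-day WT. Ctla2a, a mouse protein that resembles a cathepsin propeptide and inhibits cathepsin L, had 3.12 and 0.545 in KI, 9.31 in KO, 1.47 in 6-week WT and 3.02 in 21-day WT. In KO, 3 of the 7 were past 2-fold higher than WT at 21 days and 3 than WT at 6 weeks, beside 6.14% and 3.32% of all genes, with medians of 0.61 and 0.63, where those of all genes were 0.02 and -0.01. In KI, 1 of 7 was past 2-fold higher than WT at 6 weeks, beside 3.02% of all genes, with a median of 0.29. Also 1 was past 2-fold higher than WT at 21 days, beside 0.398%, with a median of -0.09.

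Genes of proteases matured by cathepsin C, and of the invariant chain and class II loading, are set here beside Ctsc and Ctss. Of the granzymes and other proteases that cathepsin C matures, 3 of 12 passed the filter. All 3 were past 2-fold higher in KO than in WT at 21 days, beside 6.14% of all genes. Their median was 2.64 against 0.02 over all genes, while Ctsc differed there by -0.08. Against WT at 6 weeks, 2 were past 2-fold higher in KO, beside 3.32%, with a median of 1.35. WT at 6 weeks lay above WT at 21 days in all 3, beside 50.9%. There 1 was past 2-fold, beside 3.38%, and the median was 0.67. Gzmb had 18.3 and 15.6 in KI, 58.8 in KO, 9.96 in 6-week WT and 7.15 in 21-day WT, and Gzma had 1.18 and 1.01 in KI, 14.9 in KO, 5.24 in 6-week WT and 1.55 in 21-day WT. The invariant chain gene Cd74, whose product cathepsins S and L trim, had 92.3 and 71.4 in KI, 110.4 in KO, 159 in 6-week WT and 53.8 in 21-day WT. H2-Aa, a class II chain of antigen-presenting cells, had 9.94 and 2.56 in KI, 25.9 in KO, 78.2 in 6-week WT and 9.99 in 21-day WT. All 11 tested genes of the invariant chain and class II list lay lower in the KI mean than in WT at 6 weeks (median -1.07), 4 of them past 2-fold in both libraries, beside 50.4% and 2.80% of all genes. Ctss differed there by -0.05 and -0.21. Against WT at 21 days, 5 of the 11 were higher and 6 lower in the KI mean, beside 49.9% and 49.6% of all genes. The median was -0.12, and 0 were past 2-fold in both libraries, beside 0.398% of genes higher and 0.788% lower. WT at 6 weeks lay above WT at 21 days in 10 of the 11, beside 50.9%, with 7 past 2-fold, beside 3.38%. KO lay above WT at 21 days in 10, beside 51.1%, with 5 past 2-fold higher and 1 lower, beside 6.14% and 8.16%. KO lay below WT at 6 weeks in 7, beside 51.2%, with 2 past 2-fold higher and 4 lower, beside 3.32% and 2.30%.

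**Figure D4:**
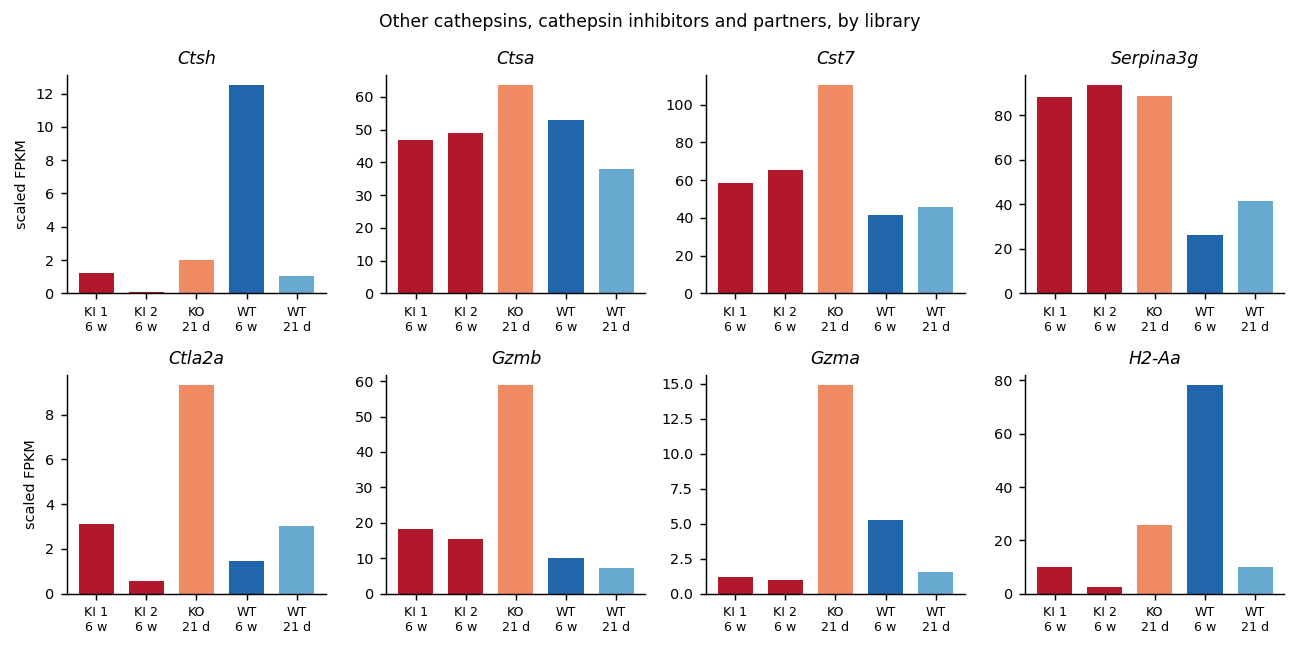
Scaled FPKM (y axis, from 0) of 2 further cathepsins, 3 cathepsin inhibitors, 2 granzymes and H2-Aa in the 5 libraries (x axis). Serpina3g lies between 87.9 and 93.5 in the 3 mutant libraries and at 26.3 and 41.4 in WT, Cst7, Ctla2a, Gzmb and Gzma are highest in KO, and Ctsh and H2-Aa are highest in WT at 6 weeks.

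Upstream sequence was at hand from RefSeq (GRCm38.p6) for 5 of the 8 genes, Ctsd, Ctsl, Ctss, Ctsz and Ctsc, and not for Ctse, Ctsb and Ctsw. The 250 bases before the start were searched on both strands for CACGTG, the core of the sites of TFEB, a regulator of lysosomal genes, for CACGTG with GT directly before and AC directly after it, and for GAAA, any pair of bases and GAAA again, a core of interferon response elements. CACGTG was present in 6.02% of 32851 such windows, the flanked form in 0.24% and the interferon response core in 2.98%. Ctsd held CACGTG in 2 places and Ctsl in 1, and Ctss held the interferon response core in 1. None of the 5 held the flanked form, and Ctsz and Ctsc held no motif. The Ctsd and Ctsl windows precede starts in RefSeq that differ from those of the entries in the files. Most of the Ctsd window, its second CACGTG included, lies inside the Ctsd entry. The windows of Ctsd, which differed between the libraries, and Ctss, which varied least in ratio, are shown with matches in capitals, Ctsd at chr7:142387828-142388077 on the minus strand and Ctss at chr3:95526536-95526785 on the plus strand. A match describes these letters and is not a measured binding site.
Ctsd: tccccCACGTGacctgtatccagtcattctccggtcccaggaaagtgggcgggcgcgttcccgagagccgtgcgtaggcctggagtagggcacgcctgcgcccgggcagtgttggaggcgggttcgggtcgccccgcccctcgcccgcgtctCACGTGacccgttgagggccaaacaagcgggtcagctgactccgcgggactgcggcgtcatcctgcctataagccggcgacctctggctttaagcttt
Ctss: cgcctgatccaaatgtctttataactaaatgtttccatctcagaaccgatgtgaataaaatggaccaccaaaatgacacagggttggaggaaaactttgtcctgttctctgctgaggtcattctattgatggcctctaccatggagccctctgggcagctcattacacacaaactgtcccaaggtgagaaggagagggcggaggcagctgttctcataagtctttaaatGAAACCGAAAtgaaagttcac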

How the data were processed

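CASAVA, HISAT2 2.1.0, Cufflinks 2.2.1 and the GRCm38 build are named in the submitters' processing notes, without their order or settings. What the authors deposited is 1 FPKM per gene with its lower and upper bound, per the file headers. Strand setting, read type and the release of the annotation were not given in the sources used here, so reads of overlapping genes cannot be separated. FPKM were divided by factors of 0.866 and 1.01 for KI, 1.14 for KO, 1.15 for WT at 6 weeks and 0.874 for WT at 21 days, medians of ratios over 9874 genes at 1 or more in all libraries. After leaving out 2 entries with a status other than OK, the 11298 genes with a mean of at least 1 were tested. limma 3.58.1 (R 4.3.3, trend, two-sided, Benjamini-Hochberg, threshold 0.05) compared KI with WT at 6 weeks and was tested on simulated data. Other comparisons were counted by size, with no test. Depth was estimated from the bounds of single-transcript genes of at least 2000 nt. The 8 genes and the lists of partners and markers were chosen with earlier results of these data known. All 8 genes are named. Of each list the 2 most abundant and the 2 most variable genes could be named, of further cathepsins all, and the 5 protein-coding genes most like Ctse. Foxp3, Nkg7 and some markers at 0 were named after their values were seen. The coding stretch of Ctsd is not reported here. Gene starts, 0-based as deposited, were raised by 1. Alternatives were another pseudocount, other scalings, other gene filters, a fit of all 5 libraries and each KI library alone.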

Additional observations from a re-analysis of the deposited data

Results flagged for a closer look

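Ctse lay in opposite directions in the 2 age-matched comparisons of a Malt1 mutant with WT, at -3.03 on the log2 scale in KI against WT at 6 weeks and at 3.67 in KO against WT at 21 days. Both KI libraries lay below WT at 6 weeks, but Ctse was selected on these levels, so this is description only. The difference between these effects was not tested, since KO and each WT group have 1 library, and the genotypes differ. The WT libraries themselves differed by 3.28, and depth and the Treg marker sum split the libraries in the same way. Their part in the result was not tested.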

How the results depend on the processing

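Ctse kept its direction under every alternative run. In KI against WT at 6 weeks its difference was -3.31 with FPKM as deposited. In KO against WT at 21 days it was 3.87 with a pseudocount of 0.1, 4.02 with FPKM as deposited and 3.84 as TPM. In WT at 6 weeks against WT at 21 days it was 3.47, 3.64 and 3.51 under the same 3. With FPKM as deposited the count past 2-fold, Ctse included, became 4, all higher, for KO against WT at 21 days. It also became 4 for WT at 6 weeks against WT at 21 days, and 3, all lower, for KI against WT at 6 weeks. On this scale the median of all genes was 0.35 in the first 2 of these comparisons and -0.26 in the last. How many of all genes were past 2-fold on it was not counted. Against WT at 21 days, leaving out 1 KI library gave 0 to 1 of the 8 past 2-fold, the 1 being Ctsl without KI replicate 1. limma, with 1 call as reported, called 50 genes with a pseudocount of 0.1, 2 with FPKM as deposited, 15 over protein-coding genes, 0 without a filter on low values (2839 at an unadjusted p under 0.05), and 0 of the 7 genes other than Ctse in each. The cause of these changes was not tested.

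Small differences changed sign. With FPKM as deposited these were, for KI against WT at 21 days, Ctss (0.0008) and Ctsz (0.012), for KO against WT at 21 days, Ctsb (0.18), Ctss (0.12) and Ctsc (0.29), and, for WT at 6 weeks against WT at 21 days, Ctsc (0.13). As TPM they were Ctss (0.074) and Ctsz (0.084) for KI against WT at 21 days, and for Ctsc in the same comparison leaving out 1 KI library gave -0.019 to 0.17. No paired analysis was possible because KO and each WT group have 1 library. No limma test was run without 1 KI library, since no residual degree of freedom remains. The fewest fragments stood behind Ctsl, an estimated 33 to 152 per library.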

Other observations

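Of 30 tested hydrolases other than cathepsins, 26 lay lower in the KI mean than in WT at 6 weeks, beside 50.4% of all genes. The median was -0.34, and 0 were past 2-fold in both libraries, beside 3.02% of all genes higher and 2.80% lower. Against WT at 21 days, 20 lay lower, beside 49.6%, with a median of -0.10. In KO 19 of 30 lay higher than in WT at 21 days, beside 51.1%, with a median of 0.27. There 1 was past 2-fold higher and 2 past 2-fold lower, beside 6.14% and 8.16% of all genes. Against WT at 6 weeks, 12 lay higher in KO, beside 48.2%. Acp5, the tartrate-resistant acid phosphatase, had 58.6 and 32.5 scaled FPKM in KI, 98.9 in KO, 88.4 in 6-week WT and 56.1 in 21-day WT. Gla, the alpha-galactosidase, ran otherwise, with 14.3 and 2.196 in KI, 2.92 in KO, 3.93 in 6-week WT and 10.8 in 21-day WT.

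The medians of the 16 tested genes of the lysosomal proton pump and the 16 of sorting to the lysosome were -0.15 and -0.19 in KI against WT at 6 weeks, and -0.15 and -0.01 in KO against WT at 21 days. None of these genes differed by 2-fold in both KI replicates from WT at 6 weeks, beside 3.02% of all genes higher and 2.80% lower. Igf2r, the receptor that carries mannose 6-phosphate-tagged enzymes, had 11.1 and 19.3 in KI, 7.28 in KO, 16.6 in 6-week WT and 17.6 in 21-day WT. It was the 1 gene of both lists past 2-fold in KO, lower than both WT libraries. Of all genes, 8.16% were past 2-fold lower in KO than in WT at 21 days and 2.30% than in WT at 6 weeks.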
